A study of Nothobranchius furzeri with 20 samples.

Results

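In the brain of the male turquoise killifish, 118 genes stood lower at 10 weeks of age than at 5 and at 14 weeks. They were chosen by their measured values from 26739 gene identifiers, of which 17994 averaged 1 CPM or more over all libraries. CPM is a gene's count as a share of all counts of its library, scaled to a total of 1000000. In each chosen gene, all 5 libraries of 14 weeks lay above all 5 libraries of 10 weeks, and at least 4 of the 5 libraries of 5 weeks did so as well. Genes whose 14- and 5-week libraries were fully separated were left out. The levels at 5, 10 and 14 weeks are therefore the values that chose the genes and are given as a description. The 7-week libraries entered the choice only through the mean CPM.

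The study measured RNA from the brain of Nothobranchius furzeri of the GRZ strain, all males, with 5 libraries at each of 5, 7, 10 and 14 weeks. No treatment, allele or transgene is given for any group, and the labels do not say whether a library is 1 animal's brain or a pool. The p-values measure only the spread between these libraries. The turquoise killifish lives in pools that dry out each season, and GRZ is an inbred strain that matures and ages within months. The teleost brain goes on adding cells in adult life, and a library of brain RNA mixes neurons, glia, vessels and whatever tissue stays attached at dissection. In such bulk RNA, fewer cells of a type and less RNA per cell cannot be told apart.

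No file gives a name for any identifier, and 0 of the 26739 occur in the RefSeq gene table for the species. The genes are therefore described by level, course and length, 4 are given by identifier, and no role can be stated for any of them. For the same reason the labelled tissue was not checked against marker genes. Library totals ran from 12004412 to 30723528 counts. Over the 17994 genes that averaged 1 CPM or more, the median Spearman rho of a library with the other 19 was 0.911 in 7-week replicate 3, 0.947 in 5-week replicate 4 and 0.949 in 5-week replicate 5, and between 0.967 and 0.984 in the rest.

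Many of the 118 genes met the conditions by a narrow margin. The ratio of the lowest 14-week to the highest 10-week library had a median of 1.096 over the genes and was 1.001 in the gene closest to the limit. Among genes that met every other condition, the closest one outside had a ratio of 0.9997. The lowest mean in the set was 1.04 CPM, and the highest mean among genes left out only for their level was 0.984 CPM. All 5 libraries of 5 weeks lay above the 10-week libraries in 47 genes and exactly 4 did so in 71. The choice required at least 4, and the share of all genes with all 5 above is not given here. In 59 of these 71 genes the exception was replicate 4, as it was in 39.9% of all 1244 genes with exactly 1 such exception. A further 8 genes met the first conditions but had separated 5- and 14-week libraries, 4 of them higher and 4 lower at 14 weeks. Single libraries bounded the set. Without 10-week replicate 4, 10-week replicate 5 or 14-week replicate 4 the conditions on the remaining libraries took 262, 294 and 257 genes. Leaving out such a library loosens the separation asked between 14 and 10 weeks, so a larger set is favoured by construction.

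The median over the genes stood 0.74 above the 10-week level at 5 weeks and 0.66 above it at 14 weeks, on the scale of mean log2(CPM + 0.1). The size of the difference between 14 and 10 weeks ranged from 0.12 to 4.93 on this scale. It was at least 2, or about 4-fold, in 25 genes, between 1 and 2 in 24 genes and below 1 in 69 genes. These are called the large, middle and small class, and since the classes were cut from the values that chose the genes, the contrast between 14 and 10 weeks carries no test here. The heat map shows all genes by library. Most genes of the large and middle classes were high in the same libraries and low in the same libraries, and the genes of the small class were less uniform. The ratio of the lowest 14-week to the highest 10-week library had a median of 7.38 in the large and 1.04 in the small class. The part of the spread within an age in the order of libraries was not tested. The classes were cut by the size of the difference, so the uniformity is not independent of how they were cut.

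**Figure D1:**
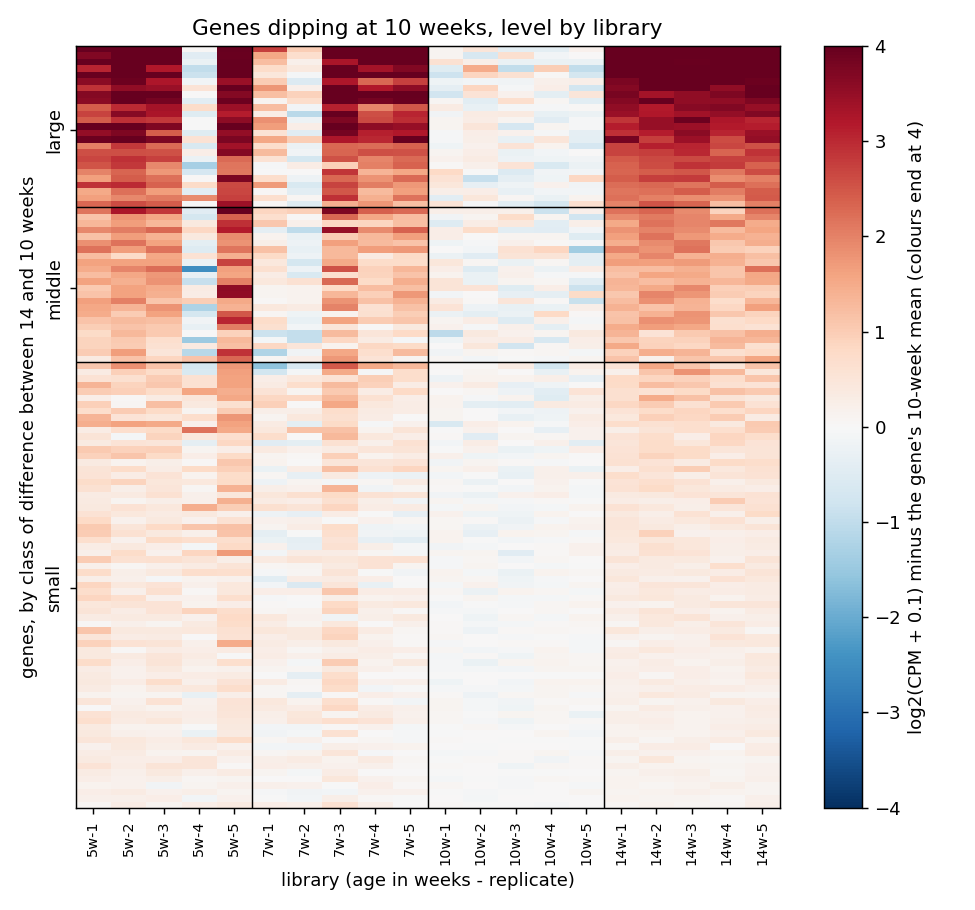
Each row is 1 of the 118 genes, ordered by the difference between 14 and 10 weeks, and each column 1 of the 20 libraries; colour gives log2(CPM + 0.1) minus the gene's 10-week mean, with colours ending at 4. In the 25 genes of the large class, 5-week replicate 4 and 7-week replicate 2 share the pale colour of the 10-week libraries, and 7-week replicate 1 is only slightly darker.

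The 25 genes of the large class were low but present. Their median level lay between 0.173 and 0.295 CPM at 10 weeks and between 2.73 and 3.38 CPM at 14 weeks. In 10-week replicates 2, 3, 4 and 5, respectively 1, 3, 2 and 3 of the 25 genes had no read, and every gene had reads in every 14-week library. Summed over the class, the level lay between 13.6 and 17.2 CPM at 10 weeks and between 155.7 and 182.1 CPM at 14 weeks. The 5-week libraries gave 127.0, 193.7 and 137.9 CPM in replicates 1 to 3, 14.46 CPM in replicate 4 and 169.7 CPM in replicate 5. Replicate 5 lay in the range of the 14-week libraries, replicate 2 above it, replicates 1 and 3 below it but far above 10 weeks, and replicate 4 within the range of the 10-week libraries.

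The 7-week libraries, which did not choose the genes by their order, were spread from the 10-week level to above the 14-week level. The summed level of the large class was 28.7 CPM in 7-week replicate 1, 11.2 CPM in replicate 2, 229.5 CPM in replicate 3, 99.7 CPM in replicate 4 and 124.4 CPM in replicate 5. Replicate 2 was below all 10-week libraries, replicate 1 was above them, and the other 3 were several times higher. In replicate 1, 16 of the 25 genes lay above all 10-week libraries, against 24.5% of the 17994 genes. In replicate 2, 5 of the 25 did so, against 22.2%. Within 7 weeks, replicates 1 and 2 were the lowest pair in 25 of the 25 genes. The same pair was lowest in 12.3% of the 17994 genes. Replicate 2 itself was the lowest in 22 of the 25 genes and replicate 3 the highest in 18. In all genes replicate 2 was the lowest in 18.1% and replicate 3 the highest in 39.2%. At 5 weeks, replicate 4 was the lowest library in 24 of the 25 genes, against 30.5% of all genes. Both orders, at 5 and at 7 weeks, held in 24 of the 25 genes and in 6.497% of all genes. The choice used the 5-week values and allowed 1 low library, so the counts that hold the 5-week order are not independent of it. That exception was replicate 4 in 21 of the 25 genes and in 39.9% of all 1244 genes with exactly 1 exception. Genes that vary together are also not independent of each other, so all these counts describe the libraries and carry no test.

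To compare genes of different abundance, each gene's CPM was placed on its own scale, with 0% at its 10-week mean and 100% at its 14-week mean. The median height of the 25 genes was -1.19% in 5-week replicate 4 and -0.833% in 7-week replicate 2. It was 9.15% in 7-week replicate 1, with quartiles at 1.90% and 17.1%. The other libraries of 5 weeks stood at 68.1%, 101.8%, 84.1% and 122.8% in replicates 1, 2, 3 and 5. The other libraries of 7 weeks stood at 120.9%, 58.0% and 73.2% in replicates 3, 4 and 5. No gene of the class exceeded 10.7% in 7-week replicate 2. In 5-week replicate 4, 1 gene stood at 82.9% and the other 24 were all under 25%. In 7-week replicate 1, 1 gene reached 59.9% and 2 were above 25%. The course over age was therefore not that of an age mean. At 5 and 7 weeks a mean over 5 libraries joined libraries between -1.19% and 9.15% with libraries between 58.0% and 122.8%.

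**Figure D2:**
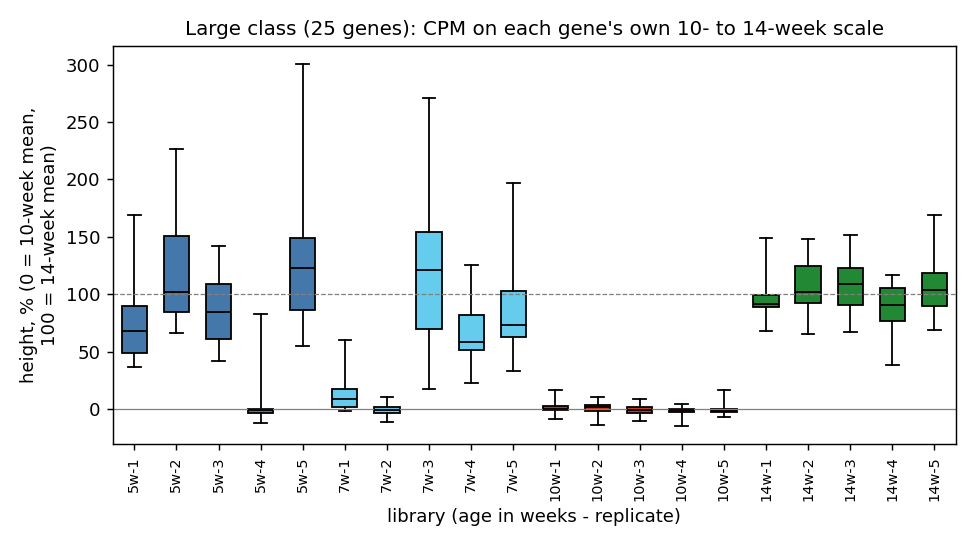
Box plots of the 25 genes of the large class in each library (x axis, age in weeks and replicate), with CPM on each gene's own scale in percent (y axis, 0 at the 10-week mean, 100 at the 14-week mean); boxes give quartiles and median, whiskers the range. The medians of 5-week replicate 4 and 7-week replicate 2, at -1.19% and -0.833%, lie with those of the 10-week libraries, and that of 7-week replicate 1 is 9.15%.

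The library totals were 27106236 counts in 5-week replicate 4, 21592055 and 25104155 in 7-week replicates 1 and 2, and 17333344 to 23845175 in the 10-week libraries. The 14-week libraries held 18953947 to 23091906 counts, and the remaining 7-week libraries 21637154, 30723528 and 29467085 counts. Replicates 1, 2, 3 and 5 of 5 weeks held 20192221, 20754453, 18454418 and 12004412 counts. The number of identifiers with a read was 21509 to 21862 in 5-week replicate 4 and 7-week replicates 1 and 2. It was 21567 to 21782 at 10 weeks and 21449 to 21820 at 14 weeks. Replicates 1, 2, 3 and 5 of 5 weeks had 21534, 21579, 21385 and 22938, and the remaining 7-week libraries 21472 to 21841. Running numbers in the sample titles, whose meaning the labels do not give, were 25 for 5-week replicate 4, 48 and 53 for 7-week replicates 1 and 2, and 57 to 62 for the 10-week libraries. The 7-week libraries on the high side had 55, 64 and 65, and those of 5 weeks 20, 21, 23 and 35. The 14-week libraries had 66 to 73. How the brains were dissected or stored is not given in the sources used here beyond a cited protocol, and the part of dissection, storage and depth in these levels was not tested.

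Nfu_g_1_021983, a gene of 612 bases, had the largest fitted fold change between 10 and 14 weeks. It stood at 2.48, 4.72, 4.34, 0.0369 and 6.16 CPM in replicates 1 to 5 of 5 weeks and at 0.787, 0.159, 6.01, 3.03 and 4.04 CPM in those of 7 weeks. The 10-week replicates held 0.0424, 0.0844, 0, 0 and 0.0475 CPM and the 14-week replicates 3.49, 5.09, 4.22, 3.68 and 3.20 CPM. All 7-week libraries lay above all 10-week libraries, and 5-week replicate 4 lay among the latter. The separation from 7 weeks rests on few reads, 4 counts in 7-week replicate 2 against 2 in 10-week replicate 2. The 10-week libraries held 4 counts in all and the 14-week libraries 402, a ratio of 107 after division by the library totals, with an exact 95% interval of 41.5 to 395 for counting error alone. Its fitted log2 fold change for 10 against 7 weeks was -6.06 ± 1.12 (SE, edgeR), a description only, since low 10-week values chose the gene. The fitted size of a gene with so few reads at 10 weeks depends on the count that edgeR adds before taking logs.

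Nfu_g_1_012497, of 891 bases, followed the same libraries. Its levels were 2.08, 2.17, 1.84, 0 and 3.75 CPM at 5 weeks, 0.185, 0.0398, 1.06, 1.99 and 1.93 CPM at 7 weeks, 0.0848, 0.0422, 0, 0 and 0 CPM at 10 weeks, and 2.95, 2.46, 1.79, 3.12 and 3.05 CPM at 14 weeks. It had no read in 3 of the 10-week libraries and in 5-week replicate 4, and 7-week replicate 2 lay between 10-week libraries. The 10-week libraries held 3 counts and the 14-week libraries 278, a ratio of 98.7 with an exact 95% interval of 33.4 to 481 for counting error. The fitted log2 fold change for 10 against 7 weeks, likewise a description, was -5.02 ± 1.17 (SE, edgeR).

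The most abundant genes of the large class show the same course with many more reads. The first, of 1050 bases, stood at 18.2, 34.8, 27.0, 1.88 and 24.7 CPM at 5 weeks and at 3.33, 1.23, 78.4, 16.8 and 23.2 CPM at 7 weeks. Its 10-week libraries lay between 2.18 and 3.46 CPM and its 14-week libraries between 25.5 and 36.2 CPM. The second, of 1974 bases, stood at 26.9, 33.5, 20.9, 1.96 and 24.2 CPM at 5 weeks and at 4.40, 1.43, 20.8, 10.8 and 14.9 CPM at 7 weeks. Its 10-week libraries lay between 1.87 and 2.52 CPM, and those of 14 weeks between 30.3 and 52.8 CPM. In both genes 5-week replicate 4 and 7-week replicate 2 were at or below the 10-week range.

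**Figure D3:**
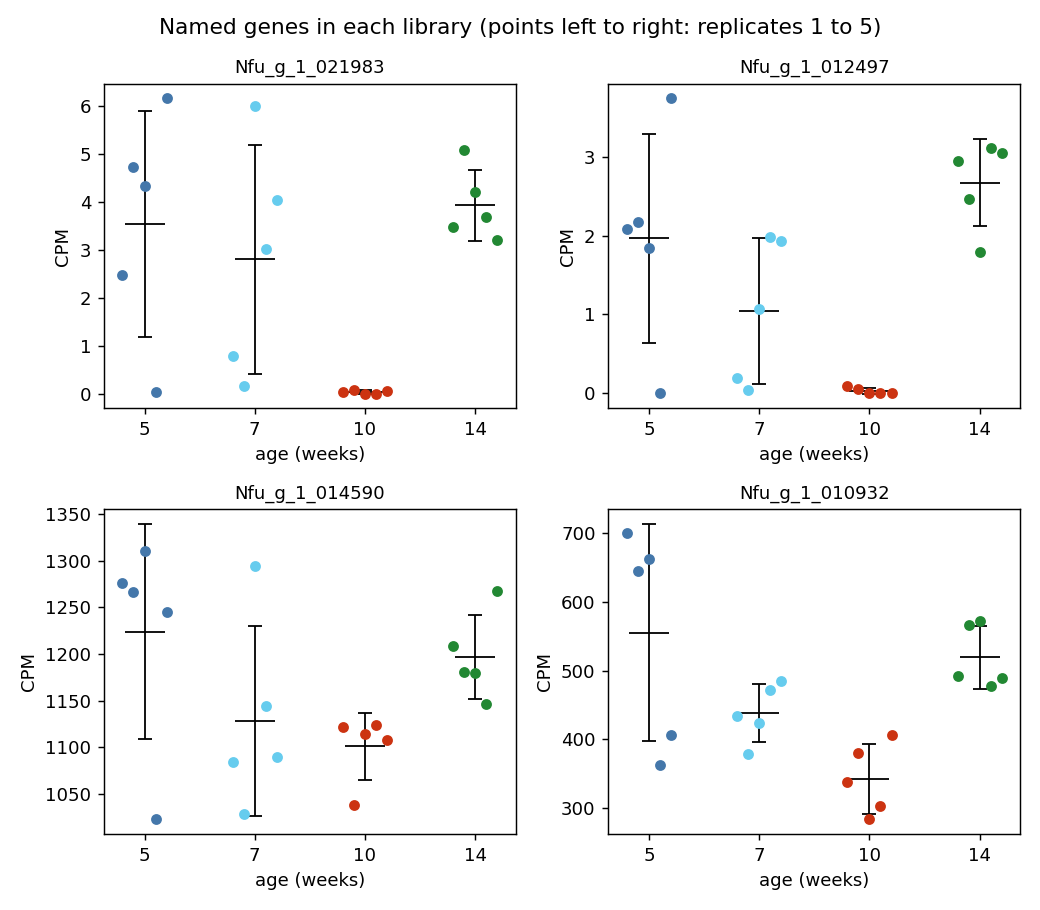
CPM (y axis) of the 4 genes given by identifier at each age in weeks (x axis); points are libraries, replicates 1 to 5 from left to right, and the bars give the mean and SD of 5 libraries. In the upper panels the 10-week libraries lie at or below 0.0848 CPM with 5-week replicate 4 among them, and in the lower panels the ages differ by much less relative to their level.

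The middle class repeated this order at a smaller size. The median over its 24 genes stood 1.24, 1.60, 1.52, -0.26 and 2.10 above the 10-week mean in the 5-week libraries on the log2 scale. At 7 weeks it stood at 0.35, -0.15, 1.42, 0.87 and 1.18, and at 14 weeks between 1.103 and 1.65. Replicates 1 and 2 were the lowest pair at 7 weeks in 19 of the 24 genes, and in each of these 19 genes replicate 4 was the lowest at 5 weeks. In 5-week replicate 4, 8 of the 24 genes lay below all 10-week libraries, a share close to the 34.8% of the 17994 genes that did so. The class held the third most abundant of the 118 genes, of 1518 bases. That gene stood at 519.3, 725.3, 881.0, 33.4 and 583.4 CPM at 5 weeks and at 288.3, 161.5, 1079.9, 353.4 and 469.8 CPM at 7 weeks. It was at 130.6 to 227.9 CPM at 10 weeks and at 404.1 to 864.3 CPM at 14 weeks. Its level in 5-week replicate 4 was lower than in any 10-week library, and 7-week replicate 2 was inside their range.

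**Figure D4:**
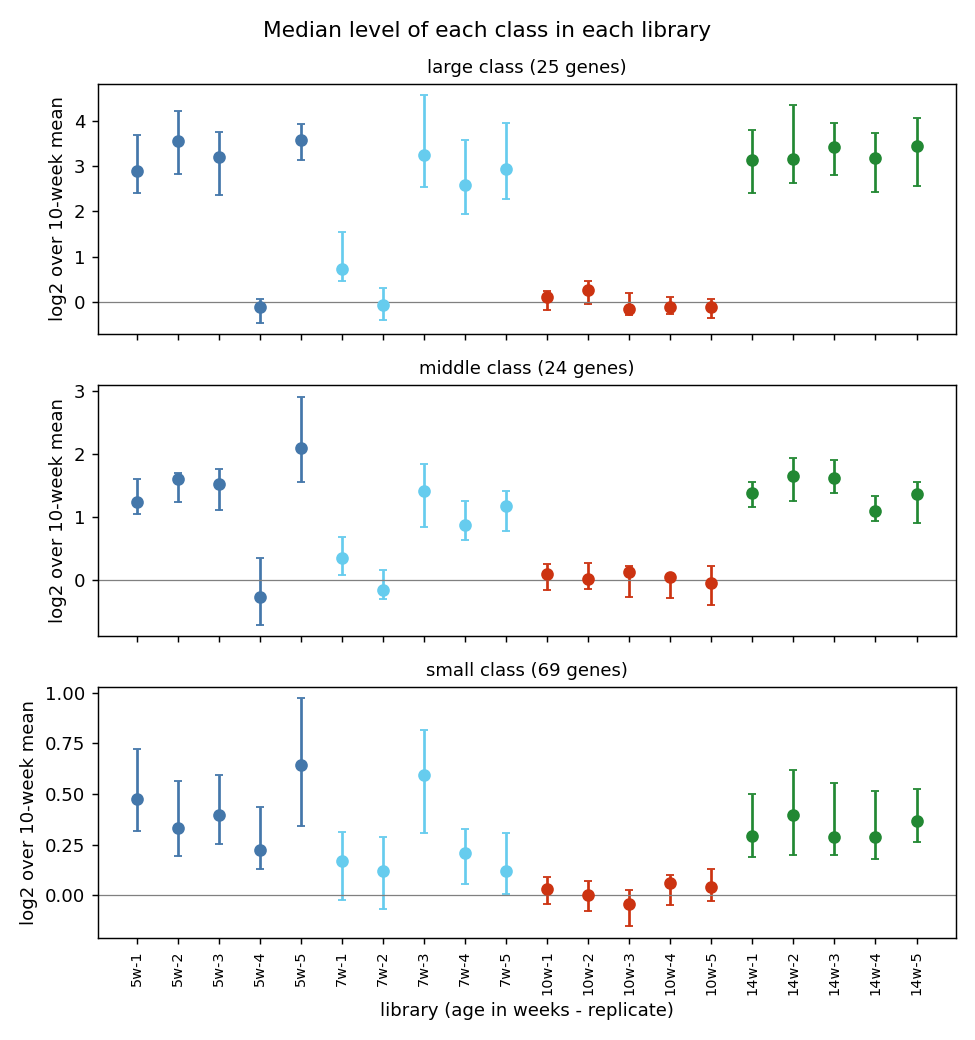
Median log2(CPM + 0.1) over the 10-week mean (y axis) of the large, middle and small class in each library (x axis, age in weeks and replicate), with bars from the 25th to the 75th percentile over genes; each panel has its own scale. In the large and middle classes 5-week replicate 4 and 7-week replicate 2 have medians below 0, at -0.12 and -0.08 and at -0.26 and -0.15, while in the small class they stand at 0.22 and 0.12.

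The small class, 69 genes, showed that order in a smaller share of its genes. Its median difference between 14 and 10 weeks was 0.36, about 1.29-fold, and the ratio of the lowest 14-week to the highest 10-week library had a median of 1.04. The median over its genes stood 0.22 above the 10-week mean in 5-week replicate 4 and 0.33 to 0.64 above it in the other 5-week libraries. The 0.64 was that of replicate 5, where the median over the 17994 genes was itself 0.19 above the 10-week mean. In that library 47.6% of the 17994 genes lay above all 10-week libraries, against 22.6% to 27.6% in the other 5-week libraries. At 7 weeks the median of the small class stood at 0.17, 0.12, 0.59, 0.21 and 0.12. Replicates 1 and 2 were the lowest pair at 7 weeks in 18 of the 69 genes, or 26.1%, against 12.3% of the 17994 genes. Replicate 4 was the lowest at 5 weeks in 35 of the 69, or 50.7%, against 30.5%, and both orders held in 13, or 18.8%, against 6.497%. The choice used the 5-week values, so these counts, like those of the middle class, are a description only. The lowest library at 7 weeks was replicate 1 in 20 genes, replicate 2 in 21 and replicate 5 in 17, and replicate 3 was the highest in 49. All 5 libraries of 5 weeks lay above those of 10 weeks in 38 of the 69 genes, in 4 of the 25 of the large class and in 5 of the 24 of the middle class. These values chose the genes, and the share over all genes is not given here, so nothing is read from these counts.

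The 2 most abundant of the 118 genes belong to the small class. Nfu_g_1_014590, of 3232 bases, stood at 1276, 1266, 1311, 1023 and 1245 CPM in the 5-week replicates and at 1084, 1029, 1294, 1144 and 1089 CPM in the 7-week replicates. The 10-week replicates gave 1122, 1038, 1114, 1124 and 1107 CPM and the 14-week replicates 1208, 1181, 1179.7, 1147 and 1267 CPM. Its 10- and 14-week libraries did not overlap, but 5-week replicate 4 and 7-week replicate 2 lay below all 10-week libraries. The mean was 1101 ± 36.0 CPM (SD, n = 5) at 10 weeks and 1128 ± 101.5 CPM (SD, n = 5) at 7 weeks, with a fitted log2 fold change of -0.04 ± 0.09 (SE, edgeR). Nfu_g_1_010932, of 6609 bases, stood at 700.0, 644.9, 662.0, 362.8 and 406.2 CPM at 5 weeks and at 433.7, 378.6, 424.1, 472.1 and 485.3 CPM at 7 weeks. It was at 338.0, 380.5, 283.4, 303.7 and 406.0 CPM at 10 weeks and at 491.7, 566.5, 571.8, 477.9 and 488.5 CPM at 14 weeks. The 5-week libraries fell into 3 at or above 644.9 CPM and 2 inside or at the edge of the 10-week range, and the 7-week libraries overlapped the 10-week libraries in 1 library. Its fitted log2 fold change for 10 against 7 weeks was -0.36 ± 0.16 (SE, edgeR).

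**Figure D5:**
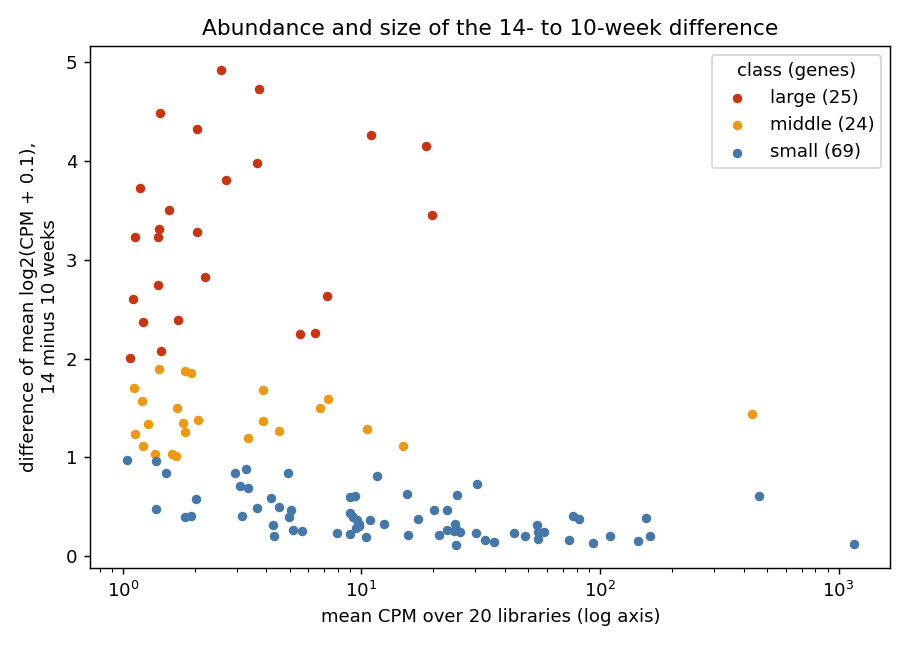
Difference of mean log2(CPM + 0.1) between 14 and 10 weeks (y axis) against the mean CPM over 20 libraries (x axis, log scale) for the 118 genes, coloured by class. Of the 25 genes of the large class 3 reach a mean of 10 CPM, and of the 69 genes of the small class 37 do. Both axes rest on values that chose the genes.

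Abundance differed between the classes. The choice used the mean CPM and the order of CPM values, and the classes were cut from the same values. The levels are therefore a description only. The median of the mean CPM was 2.05 in the large, 1.83 in the middle and 11.6 in the small class, against 20.6 over the 17994 genes. A mean of at least 10 CPM was reached by 3, 3 and 37 genes of the classes. Per kilobase of gene length, the median level at 14 weeks was 1.98 CPM in the large, 0.863 CPM in the middle and 6.87 CPM in the small class, against 8.36 CPM over all these genes. The choice did not use gene length directly, but CPM is not divided by length, so length could enter through the counts. The lengths are therefore a description only. The median length was 2308 bases over the 118 genes and 2779 bases over the 17994. It was 1974, 3231 and 2433 bases in the large, middle and small class. Of the 118 genes, 12 were longer than 5000 bases, or 10.2%, against 23.5% of all these genes. Genes under 1000 bases made up 16.9% of the 118 and 16.3% of all.

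Between 7 and 10 weeks, 21 of the 118 genes fell and 0 rose (edgeR's quasi-likelihood test on all 20 libraries, adjusted p below 0.05). That is 17.8% of the genes, where 1.61% of the 19474 genes tested were called lower at 10 weeks and 1.14% higher. The 10-week libraries had been chosen as low, so this count describes the genes and is not independent of the choice. The 21 genes were 17 of the large class, 1 of the middle class and 3 of the small class, with log2 fold changes from -6.06 to -0.44 and adjusted p-values from 0.0076 to 0.050. At an unadjusted p below 0.05 there were 67 lower and 0 higher, against 1952 lower and 1495 higher among the 19474 genes tested. The median log2 fold change was -3.16 in the large, -0.93 in the middle and -0.23 in the small class, and 0.02 over all genes tested. The classes were cut with the same 10-week values, so the class split and these medians are a description only. Of the 21 genes, 8 had all 7-week libraries above all 10-week libraries. Over the 118 genes 15 had this separation, 12.7%, against 3.38% of the 17994 genes. The opposite separation was found in 0 of the 118 and in 3.43% of the 17994. The number called was 13 when 7-week replicate 3 was left out of the fit and 9 when replicate 4 of that age was. It was 5 when 10-week replicate 1 was left out, 7 for replicate 2 and for replicate 4 of that age, and 2 for replicate 3. It was 26 without the 3 libraries of lowest correlation. With only the libraries of these ages in the fit 1 gene was called of 104 tested, by limma-voom 3 and by DESeq2 36. The 1.61% and 1.14% belong to the main fit, and the shares over all genes in the other fits are not given here.

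For 7 weeks against 5 or 14 weeks edgeR called 0 of the 118 genes. For 14 against 7 weeks the background was 1.45% called higher and 1.04% called lower. With p below 0.05 before adjustment, 20 were higher and 1 lower at 14 weeks, against 1831 higher and 1576 lower among the 19474 genes tested. DESeq2 called 6 of the 118 higher and limma-voom 5. The log2 fold change was positive in 91 of the 118 genes. Its median was 0.76 in the large, 0.48 in the middle and 0.08 in the small class, and 0.0024 over all genes tested. For 7 against 5 weeks the background was 0.0154% called lower. At an unadjusted p below 0.05, 26 were lower and 1 higher at 7 weeks, against 1587 lower and 725 higher among the 19474 genes tested. DESeq2 called 4 of the 118 lower and limma-voom 0. The log2 fold change was negative in 98 of the 118 genes. Its median was -0.37 in the large, -0.53 in the middle and -0.15 in the small class, and -0.0030 over all genes tested. The 5- and 14-week libraries were chosen as high, the classes were cut with the 14-week values, and both comparisons share the 7-week libraries. The counts depended on the libraries of low correlation. Without 7-week replicate 3, 10 genes were higher at 14 than at 7 weeks and 12 lower at 7 than at 5 weeks. Without 5-week replicate 4 these counts were 2 and 1, and without 5-week replicate 5 the first was 2. Without all 3 of these libraries they were 21 and 8. The shares over all genes in these other fits are not given here.

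In the comparisons that chose the genes, nothing is read from the counts. Between 10 and 14 weeks edgeR called 15 of the 118 genes higher, with a background of 0.0976%, and 11 of them were of the large class. That count was 1 to 3 without any single 10-week library, 2 or 3 without 14-week replicate 1, 2, 3 or 4, 3 without 5-week replicate 1 or 3 or 7-week replicate 4, and 30 without 5-week replicate 4. Between 5 and 10 weeks 63 genes were called lower, with a background of 3.85% lower and 2.13% higher, 24 of them of the large, 15 of the middle and 24 of the small class. With 10-week replicate 1 or 2 left out 38 were called, with replicate 3 left out 26 and with replicate 4 left out 41. For the fits with a library left out, the shares over all genes are not given here.

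The levels at 5 and 14 weeks were kept from full separation by the choice and are described without a test. With all libraries, the mean log2 level was higher at 14 than at 5 weeks in 23 of the 25 genes of the large class, with a median difference of 0.82. That difference rested on 5-week replicate 4. Without it 12 of the 25 genes were higher at 14 weeks and the median was -0.0047, and without all 3 libraries of low correlation 17 were higher and the median was 0.19. In the middle class the mean was higher at 14 weeks in 17 of 24 genes, with a median of 0.19, and without 5-week replicate 4 in 7, with a median of -0.27. In the small class it was higher in 22 of 69 genes, with a median of -0.07, and without that library in 14, with a median of -0.12. The median SD of log2(CPM + 0.1) in the large class was 1.53 at 5 and 1.502 at 7 weeks, against 0.40 at 10 and 0.26 at 14 weeks. Over the 17994 genes, in the same order of age, it was 0.27, 0.30, 0.18 and 0.21. Without 5-week replicate 4 the SD of the large class at 5 weeks was 0.47, and that of the 17994 genes 0.25. Without the 3 libraries the SD of the large class at 7 weeks was 1.46, and that of the 17994 genes 0.16. The choice used the order of the 5-, 10- and 14-week libraries, so these SDs are a description only.

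The mirrored conditions, with 10 weeks as the peak, also took 118 genes. The equal number depended on the scaling. TMM scaling took 99 dipping and 167 peaking genes, and DESeq2 size factors took 107 and 148. The 118 peaking genes were more abundant and longer, with a median of the mean CPM of 45.3 and a median length of 4729 bases. Of them 46.6% were longer than 5000 bases. Their difference between 14 and 10 weeks ran from -1.65 to -0.11 on the log2 scale, so none reached the size of the large class of dipping genes. At 7 weeks 7-week replicate 3 was the lowest library in 113 of the 118 peaking genes, and replicates 1 and 2 were the lowest pair in 0. In the dipping genes these counts were 5 and 62, and over the 17994 genes the shares were 39.9% and 12.25%. At 5 weeks replicate 4 was the lowest library in 28 of the peaking and 82 of the dipping genes, and in 30.5% of the 17994. Both sets were chosen by values of the same 5-, 10- and 14-week libraries, and the difference between them was not tested.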

How the data were processed

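The table of raw counts that the authors deposited covers 26739 identifiers and 20 libraries. Tools named in the submitters' processing notes are STAR 2.4.1d, featureCounts 1.4.6-p4 and CASAVA 1.8.2. No source used here gives the genome build, annotation or strand setting, so reads of overlapping or antisense genes and of near-identical copies cannot be told apart. The authors also deposited RPKM values. Each is a count over a gene length and over the total of a library, which changes from row to row in a fixed rotation. Using the rotation returned 99.99% of the values checked to within 0.0011, and using each library's own total returned 4.43%. The RPKM values served only to solve gene lengths.

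CPM was the count divided by the column sum, scaled to 1000000. Differences used log2(CPM + 0.1), and classes began at 1 and 2 on that scale. Counts were tested in R 4.3.3 with edgeR 4.0.16: TMM, filterByExpr by age (19474 genes, all 118 members among them), a robust quasi-likelihood fit of all 20 libraries with 1 mean per age, and Benjamini-Hochberg adjustment over all tested genes at 0.05. The standard error was the log2 fold change divided by the square root of F. Alternatives were limma 3.58.1 (voom), DESeq2 1.42.0, other scalings, filters and conditions, and leaving out each library. Leaving out 3 libraries together, and 5-week replicate 4 in the comparison of 14 with 5 weeks, was added after seeing the data. The code was tested on simulated data. Python 3.11.15 with pandas 2.3.3 and scipy 1.17.1 did the rest. Intervals cover counting error only.

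The genes, classes and comparisons were chosen with earlier results of these data known. The rule for genes given by identifier took the 2 members with the largest edgeR fold change between 10 and 14 weeks and, of the rest, the 2 with the highest mean CPM. Other members described by rank were chosen after their values were seen. Replicate numbers follow accession order and pair nothing.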

Additional observations from a re-analysis of the deposited data

Results flagged for a closer look

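A library was listed here where its gap to the nearest library of its age exceeded 0.71 of the range of the 5 libraries, which chance gives in about 1 of 20 groups. Of 32 groups examined, 4 had such a library. That rate does not hold for these groups, which share libraries and rest on genes chosen by their values. The choice allowed 1 low 5-week library, and in 21 of the 25 large-class genes that library was replicate 4. The list is a description only. In the large class, the median log2 level over the 10-week mean was -0.12 in 5-week replicate 4, far below the other 5-week libraries (gap 0.814 of the range). In the small class the same median was 0.59 in 7-week replicate 3, far above the other 7-week libraries (0.806). Nfu_g_1_014590 stood at 1023 CPM in 5-week replicate 4, far below the other 5-week libraries (0.772), and at 1038 CPM in 10-week replicate 2, far below the other 10-week libraries (0.809).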

How the results depend on the processing

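The set of 118 genes held 43 with a mean CPM floor of 10 and 47 when all 5-week libraries had to lie above, and 116 to 294 with 1 library left out. Scaling by TMM took 99 genes, 94 of them among the 118, and kept all 25 of the large, all 24 of the middle and 45 of the 69 of the small class. With DESeq2 size factors 107 were taken, 100 of them shared. Without the 3 libraries of lowest correlation 156 were taken, 102 of them shared. The mirrored set of 118 rose to 167 with TMM and to 148 with DESeq2 size factors. It fell to 66 when all 5-week libraries were needed and ran from 114 to 255 with 1 library left out.

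Of the 118 genes, those called for 10 against 7 weeks (21) numbered 1 with only these ages fitted, where the fit held fewer libraries and 104 of the genes, 3 by limma-voom and 36 by DESeq2, and 2 to 26 with 1 library left out. For 14 against 7 weeks (0) they numbered 5 by limma-voom, 6 by DESeq2, 21 without the 3 libraries, and 0 to 10 with 1 left out. For 7 against 5 weeks (0) they numbered 4 by DESeq2, 8 without the 3 libraries, and 0 to 12 with 1 left out. For 14 against 10 weeks (15) they numbered 41 with only these ages fitted, 0 by limma-voom (84 higher at an unadjusted p below 0.05), 38 by DESeq2, 45 without the 3 libraries, and 1 to 30 with 1 left out. For 10 against 5 weeks (63) they numbered 28 by limma-voom and 26 to 87 with 1 left out. Within each comparison all called genes had one direction under every alternative run. The choice of the genes set or favoured these directions, so their uniformity is a description only. The counts under the alternatives are given without their share over all genes. Where no construction is named, the cause was not tested.

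The median difference between 7 and 10 weeks over the genes, 0.42, ran from 0.30 to 0.48 with 1 library left out and was 0.23 over the members with a mean CPM of at least 10. The median difference between 14 and 5 weeks in the large class, 0.82, was -0.0047 without 5-week replicate 4. For Nfu_g_1_014590 the log2 fold change of 10 against 7 weeks ran from -0.067 to 0.017 with 1 library left out, turning positive (0.017) without 7-week replicate 3, and was 0.013 without the 3 libraries. Genes near 1 CPM rest on few reads at 10 weeks. No paired analysis was possible because the replicate numbers follow accession order and name nothing shared between ages.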
